A study of Mus musculus with 9 samples.

Results

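Transthyretin (Ttr) and 9 further genes known from the choroid plexus were followed across dissected nigral tissue of 3 groups of mice. The genes were Ttr, Car12, 1500015O10Rik, F5, Kl, Folr1, Clic6, Aqp1, Otx2 and Enpp2, which are 10 of the 55450 annotated genes in the deposited counts. They were taken by name: Ttr, Car12, 1500015O10Rik and F5 were listed because their counts stood far above control in these same libraries, and the rest because they belong with the choroid plexus. Their differences between groups are therefore given as a description, with no test.

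RNA was sequenced in 9 libraries, 3 for each group. In the control group (CTR), CX3CR1-CreERT2 mice, whose tamoxifen-dependent Cre is driven from a locus active in microglia and other myeloid cells, received a Cre-dependent vector for GFP, in a destabilized form per the study's methods. In the CX3 group the same Cre line received a Cre-dependent vector expressing mutant human Synuclein, and in the DAT group the Synuclein-expressing vector went into DAT-Cre mice, whose Cre acts in dopaminergic neurons. All groups had a stereotactic lentiviral injection into the substantia nigra, and the nigral tissue was cut out by hand 5 weeks later. The study's methods describe male mice of 9 weeks, while its account of the injections gives 8 weeks, and tamoxifen on 4 days for the CX3CR1-CreERT2 mice, so CTR and CX3 share the Cre line and tamoxifen. DAT differs from CTR in Cre line, tamoxifen and transgene together, and these cannot be told apart. No source used here states how many animals went into a library, so the spread between libraries may be partly technical.

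The choroid plexus is a fringe of blood vessels covered by a single-layered epithelium that hangs in the brain ventricles and makes cerebrospinal fluid. Its epithelial cells pump ions and let water follow, move vitamins and hormones from blood to fluid, and secrete proteins. Transthyretin, a carrier of thyroxine and of retinol-binding protein, is the best known of these and within the brain is made chiefly by this epithelium.

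Between 21592817 and 39475428 reads per library fell on genes, and levels are given as CPM, counts scaled to the size of the library, with TMM factors. Markers of dopaminergic neurons were present in all groups, with Slc6a3, the dopamine transporter, at a mean of 130.004 CPM in CTR, 195 CPM in CX3 and 91.1 CPM in DAT. The study's methods name the DAT-Cre line as an Slc6a3 allele, and the part of that allele in the DAT level was not tested. Library DAT 2 stood apart: its squared differences from the other DAT libraries were 12.1 and 16.5 times those of read sampling, against 2.25 between DAT 1 and DAT 3 and 1.46 to 1.79 within CTR. In DAT 2, among genes with a mean of at least 5 CPM, the 25% with the shortest exon length had a median log2 difference of 0.17 from the other DAT libraries, and the 25% with the longest one of -0.15.

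Ttr was a message of modest level in control nigra and among the most abundant messages in both Synuclein groups. Its level was 19.4, 20.8 and 19.9 CPM in the CTR libraries, 1519.7, 1441 and 1411 CPM in the CX3 libraries, and 794, 966 and 799 CPM in the DAT libraries. Every CX3 and DAT library lay far above every CTR library, and every CX3 library lay above every DAT library. In raw reads, 591 to 758 reads per CTR library stood against 49884 to 58529 per CX3 library and 18202 to 28958 per DAT library. The spread between libraries, as a coefficient of variation, was 3.6% in CTR, where read sampling alone gives 3.93%, against 3.86% (sampling 0.43%) in CX3 and 11.5% (0.672%) in DAT. The mean was 20.03 ± 0.720 CPM in CTR, 1457 ± 56.2 in CX3 and 853 ± 97.7 in DAT (SD, n = 3), 72.7-fold and 42.6-fold over control. On the log2 scale the fitted difference from CTR was 6.18 (SE 0.07) for CX3 and 5.41 (SE 0.07) for DAT, and CX3 exceeded DAT by 0.77 (SE 0.06). Scaled per exon length, Ttr had rank 2955 among all genes in CTR, with 54.4 TPM (the length-scaled counterpart of CPM), rank 15 in CX3 with 4171 TPM and rank 23 in DAT with 2086 TPM. Ttr (ENSMUSG00000061808.4) lies on the plus strand of chromosome 18 (GRCm38), and its 1186 bases of annotated exon overlap no other exon. In bulk tissue such as this, fewer or more cells of a type and less or more RNA per cell cannot be told apart.

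The other secreted products divided into low messages that were several-fold higher in both Synuclein groups and an abundant message that was higher by less than 2-fold. 1500015O10Rik encodes augurin, a secreted peptide precursor of the choroid plexus epithelium. Its level was 2.63, 2.25 and 2.33 CPM in CTR, 17, 16.8 and 15.3 CPM in CX3, and 10.1, 15.4 and 10.6 CPM in DAT. Both Synuclein groups lay above CTR in every library, by 6.81-fold and 5.01-fold in the mean, while CX3 and DAT overlapped through DAT 2. F5 encodes coagulation factor V, a cofactor of thrombin formation. F5 was at 0.985, 1.29 and 0.733 CPM in CTR, 6.85, 6.87 and 7.68 CPM in CX3, and 11.5, 8.50 and 11.3 CPM in DAT. For this gene DAT was the highest group in every library, 10.4-fold over the CTR mean against 7.11-fold for CX3. Enpp2 encodes autotaxin, a secreted enzyme that makes lysophosphatidic acid and that oligodendrocytes produce as well. Enpp2 was already at 717, 706 and 705 CPM in CTR, and reached 1067, 1105 and 1109 CPM in CX3 and 922, 901 and 933 CPM in DAT. The groups did not overlap, but the folds over CTR were 1.54 and 1.29. The oligodendrocyte gene Mbp, a myelin protein gene, stood at means of 9533 CPM in CTR, 10504 CPM in CX3 and 5311 CPM in DAT, and the part of oligodendrocytes in the level of Enpp2 was not tested.

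**Figure D1:**
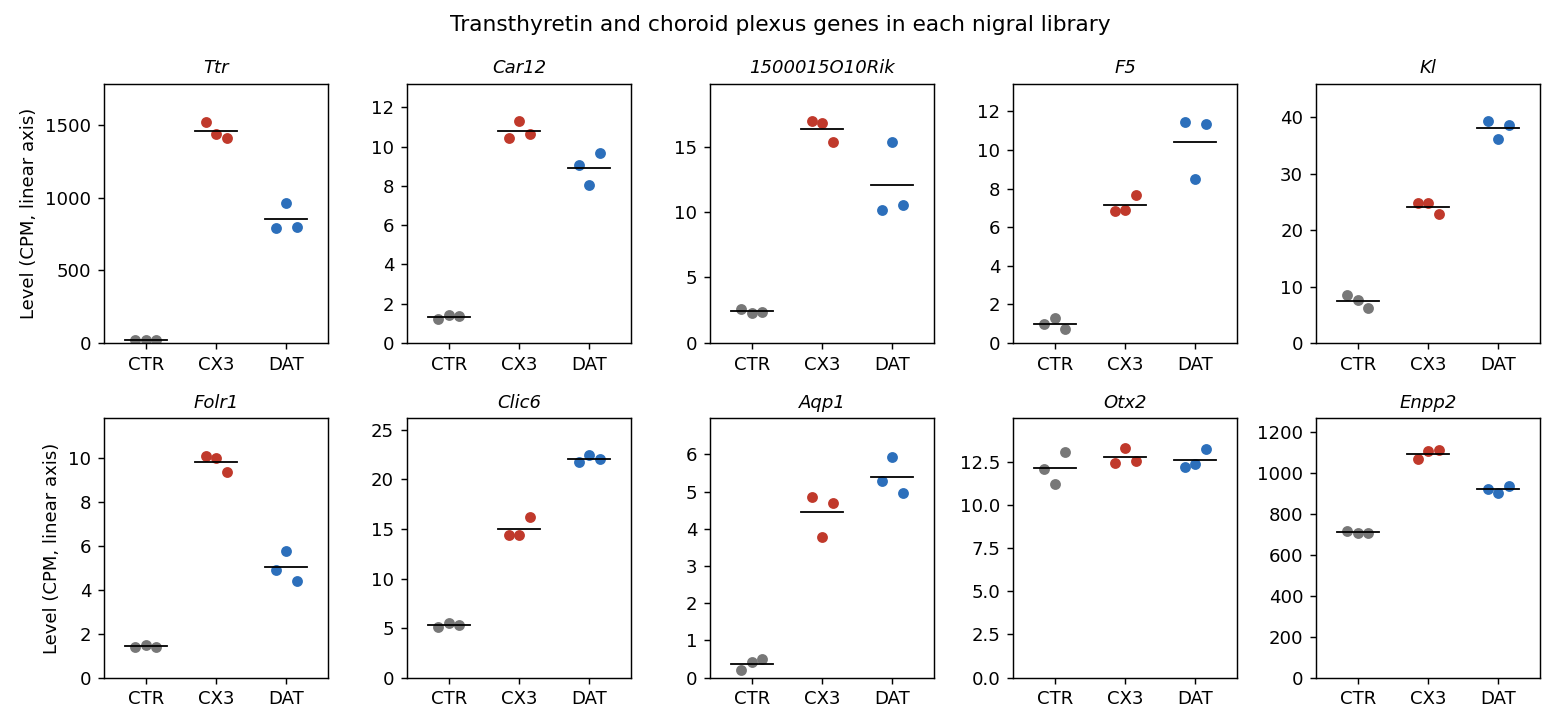
Level of each of the 10 genes in CPM, on linear axes from 0 that differ between panels, against the group; each point is 1 library and each line the mean of 3. Ttr reaches 1411 to 1519.7 CPM in CX3 and 794 to 966 CPM in DAT from 19.4 to 20.8 CPM in CTR, whereas the Otx2 points of all groups share a range of 11.2 to 13.3 CPM.

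Genes for receptors and coreceptors at the epithelial surface were also higher in both Synuclein groups, in opposite orders. Folr1, folate receptor alpha, carries folate across the epithelium into the fluid. Folr1 was at 1.41, 1.51 and 1.40 CPM in CTR, 10.1, 10 and 9.40 CPM in CX3, and 4.91, 5.78 and 4.43 CPM in DAT, so that the groups were ordered as for Ttr. The folds over CTR were 6.83 and 3.50, and CX3 exceeded DAT by 0.97 (SE 0.10) on the log2 scale. Kl encodes klotho, a coreceptor for fibroblast growth factor 23 that is also shed into the fluid. Kl was at 8.51, 7.55 and 6.17 CPM in CTR, 24.8, 24.9 and 22.8 CPM in CX3, and 39.4, 36.1 and 38.6 CPM in DAT. Here DAT was above CX3 in every library, and the folds over CTR were 3.26 for CX3 and 5.13 for DAT.

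The genes of ion and water movement had low control levels and higher ones in both Synuclein groups, again without a common order between CX3 and DAT. Car12 encodes a membrane-bound carbonic anhydrase, which makes bicarbonate for fluid secretion. Car12 was at 1.22, 1.43 and 1.37 CPM in CTR, 10.5, 11.3 and 10.7 CPM in CX3, and 9.05, 8.05 and 9.70 CPM in DAT. The 2 Synuclein groups were 8.08-fold and 6.68-fold over CTR and lay close to each other, with a log2 difference of 0.27 (SE 0.09). Aqp1 encodes the water channel of the fluid-facing membrane. Aqp1 was at 0.197, 0.412 and 0.5 CPM in CTR, which were 6, 15 and 15 reads, against 4.86, 3.78 and 4.69 CPM in CX3 and 5.29, 5.93 and 4.96 CPM in DAT. Its folds of 12 and 14.6 rest on those few control reads, and the SE of its log2 differences from CTR, 0.27 for CX3, was the widest of the 10 genes in that comparison. Clic6 encodes a chloride intracellular channel protein. Clic6 was at 5.09, 5.47 and 5.27 CPM in CTR, 14.4, 14.4 and 16.2 CPM in CX3, and 21.7, 22.5 and 22.0 CPM in DAT, with DAT above CX3 in every library. The folds of Clic6 over CTR were 2.84 and 4.19.

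Otx2, a homeodomain transcription factor needed to form and keep the choroid plexus and also used in the midbrain, stood apart from the rest. Otx2 was at 12.1, 11.2 and 13.0 CPM in CTR, 12.4, 13.3 and 12.6 CPM in CX3, and 12.2, 12.4 and 13.2 CPM in DAT. The 3 groups overlapped entirely, and the log2 differences from CTR were 0.08 (SE 0.07) for CX3 and 0.06 (SE 0.08) for DAT. With library size alone as the scaling, its difference between DAT and CTR changed sign to -0.09. Part of the Otx2 exons is shared with neighbours, 3.98% with Gm49154 on the same strand and 3.65% with the antisense gene Otx2os1, and the counts do not keep strands apart.

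By the rule used for all genes (edgeR quasi-likelihood test, Benjamini-Hochberg adjusted p below 0.05 and at least a 2-fold difference), 8 of the 10 genes were called higher in CX3 than in CTR, where 1.33% of the 20892 genes tested were called higher and 3.59% in either direction. The same 8 were called higher in DAT, where 3.88% of all genes were, and 15.9% in either direction. Because the genes were picked on these contrasts, nothing is read from those counts. Otx2 and Enpp2 were the exceptions. The libraries of 9 of the 10 genes did not overlap with CTR, upwards in each comparison, where 23.9% of all genes lay apart upwards and 25.4% downwards for CX3, and 33.5% and 30.6% for DAT. The median log2 difference from CTR was 2.77 in CX3 and 2.33 in DAT, while the medians over all genes tested were -0.0033 and -0.0038. All 10 genes passed the filter on low counts, Aqp1 only through the Synuclein groups.

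Between CX3 and DAT the 10 genes split. Ttr, Folr1, Car12 and Enpp2 were higher in every CX3 library than in any DAT library, F5, Kl, Clic6 and Aqp1 were lower in every CX3 library, and 1500015O10Rik and Otx2 overlapped. Over all genes tested, 28.8% were higher without overlap and 32.2% lower. The log2 differences ranged from -0.66 for Kl to 0.97 for Folr1, just under 2-fold. Leaving out 1 library in turn, that of Folr1 ran from 0.92 to 1.07, the latter without DAT 2. None of the 10 genes was called between these groups, where 15.4% of all genes were called. The median log2 difference of the 10 genes was 0.14, against 0.01 over all genes tested.

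If a gene's level above control is set against that of Ttr, the proportions were not constant. F5 added 0.427 CPM for every 100 CPM added by Ttr in CX3, and 1.13 in DAT. For Kl these shares were 1.17% and 3.68%, for Clic6 0.675% and 2.02%, and for Aqp1 0.283% and 0.603%. Folr1 went the other way, with 0.585% in CX3 and 0.432% in DAT, and Enpp2 stayed close, with 26.7% and 25.1%. Expressed as the increase over control in DAT divided by that in CX3, the ratio was 0.428 for Folr1, 0.580 for Ttr, 0.689 for 1500015O10Rik, 0.802 for Car12, 1.23 for Aqp1, 1.54 for F5, 1.73 for Clic6 and 1.83 for Kl. Of these 8 genes, 4 had a ratio under 1 and 4 over 1.

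**Figure D2:**
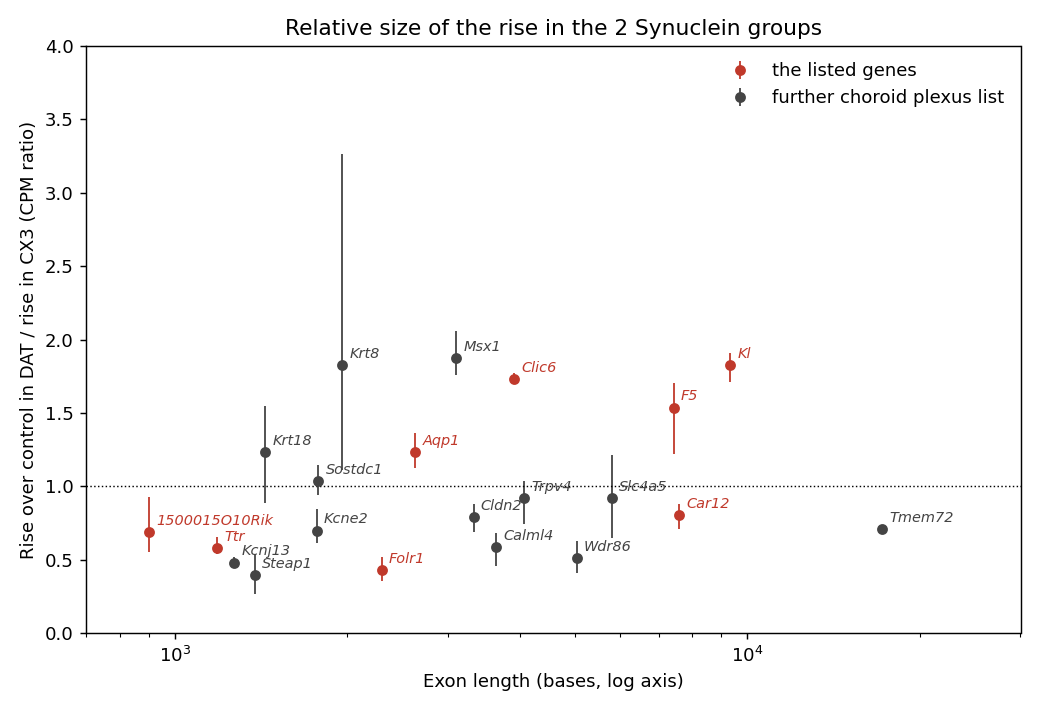
Increase over the CTR mean in DAT divided by that in CX3 (CPM ratio), against annotated exon length on a log axis, for the 8 listed genes and the 13 genes of the further choroid plexus list called higher in both groups; bars run from the lowest to the highest DAT library. The ratio runs from 0.428 for Folr1 to 1.83 for Kl among the listed genes and from 0.396 to 1.88 in the further list.

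Exon length and base composition moved with the comparison of CX3 and DAT across all genes. The shortest 25% of genes, with up to 1928 exon bases, had a median log2 difference between CX3 and DAT of 0.20, and the longest 25%, from 5880 bases, one of -0.15. By GC content the lowest 25% had a median of 0.22 and the highest 25% one of -0.26. Ttr (1186 exon bases) and 1500015O10Rik (902) are among the shortest 25% and were higher in CX3 in the mean, while F5 (7430) and Kl (9328) are among the longest and were higher in DAT, but Car12 (7597) is long and was higher in CX3. The part of length and composition in the order of CX3 and DAT was not tested. In the comparisons with CTR the medians by length or GC lay between -0.28 and 0.30, and their part in the differences of the 10 genes from CTR was not tested either.

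Library DAT 2 differed from its group by exon length within the 10 genes too. Relative to the mean of DAT 1 and DAT 3, its log2 level was 0.57 for 1500015O10Rik, 0.31 for Folr1, 0.28 for Ttr and 0.21 for Aqp1, whose exons span 902 to 2627 bases, and -0.42 for F5, -0.22 for Car12 and -0.11 for Kl, whose exons span 7430 to 9328. Clic6, Otx2 and Enpp2 lay between -0.04 and 0.04. Leaving out any 1 library in turn, the log2 difference of Ttr from CTR stayed between 6.15 and 6.21 for CX3 and between 5.31 and 5.44 for DAT.

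Of the listed genes, no promoter window was examined for Ttr, Enpp2, Folr1 and Clic6, and RefSeq windows were searched for the other 6. The 250 bases upstream of the annotated start are shown for Car12, 1500015O10Rik and F5, as they were listed together with Ttr for their large difference from control. They are from RefSeq on GRCm38.p6, plus strand, at chr9:66713436-66713685, chr1:43730352-43730601 and chr1:164151585-164151834.
Car12: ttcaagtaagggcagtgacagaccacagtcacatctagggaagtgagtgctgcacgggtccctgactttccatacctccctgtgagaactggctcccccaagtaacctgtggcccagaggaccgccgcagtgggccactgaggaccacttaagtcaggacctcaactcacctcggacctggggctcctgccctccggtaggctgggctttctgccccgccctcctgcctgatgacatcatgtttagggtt
1500015O10Rik: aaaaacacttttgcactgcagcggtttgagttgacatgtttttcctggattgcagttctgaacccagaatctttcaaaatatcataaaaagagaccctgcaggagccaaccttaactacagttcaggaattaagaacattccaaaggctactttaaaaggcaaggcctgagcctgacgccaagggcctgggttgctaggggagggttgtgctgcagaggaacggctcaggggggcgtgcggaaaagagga
F5: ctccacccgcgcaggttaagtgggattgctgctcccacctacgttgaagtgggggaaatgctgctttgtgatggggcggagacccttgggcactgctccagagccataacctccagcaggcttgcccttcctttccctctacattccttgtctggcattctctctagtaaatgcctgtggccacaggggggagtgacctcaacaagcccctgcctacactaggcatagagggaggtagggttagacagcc
All letters are in lower case because none of the motifs searched, TAATCC (a core bound by OTX2-type homeodomains), TATAAA and CCAAT, was found on either strand of these 3 windows, nor in those of Kl and Aqp1. Among the 4 annotated Otx2 starts, 1 window held TAATCC, 1 TATAAA and 1 CCAAT. Over all 32851 promoter windows of this length, 6.25% held TAATCC, 12.4% TATAAA and 33.8% CCAAT. The absence of a match says only that these letters are not in the windows shown.

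The 10 genes whose profile over the 9 libraries was most like that of Ttr were found by the root mean square difference between centred log2(CPM + 0.5) values, among the 20891 other genes tested. Kcne2 (1.10), a potassium channel subunit, and Tmem72 (1.25), a transmembrane protein gene, were the nearest, followed by Pmch (1.31), Aqp1 (1.53), Car12 (1.56), F5 (1.59), Cldn2 (1.59), 1500015O10Rik (1.63), Hcrt (1.65) and Prr32 (1.67). Of these, 4 are among the listed genes and 3 (Kcne2, Tmem72, Cldn2) in the further choroid plexus list described below. Car12, F5 and 1500015O10Rik were listed for counts far above control in these same libraries. Their nearness to Ttr was favoured by that choice and is no independent evidence. Aqp1, Kcne2, Hcrt and Prr32 passed the filter on low counts only through the Synuclein groups, so their nearness is no independent evidence either. Folr1, Kl and Clic6 followed at ranks 14, 17 and 19, while Enpp2 had rank 475 and Otx2 rank 7716. Since Ttr differed far more between groups than almost any other gene, likeness to it reflects the size of a difference as well as its order.

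Pmch and Hcrt are neuropeptide genes of lateral hypothalamic neurons, the precursors of melanin-concentrating hormone and of hypocretin. Pmch was at 0.554 ± 0.105 CPM in CTR, 9.92 ± 0.487 in CX3 and 6.19 ± 0.705 in DAT (SD, n = 3), and Hcrt at 0.290 ± 0.0653, 9.29 ± 0.654 and 1.57 ± 0.302 CPM. These are neurons of a brain region next to the midbrain and not cells of the choroid plexus, and the part of dissection in the level of Ttr was not tested. Hcrt had 7 to 11 reads per CTR library and 328 to 376 per CX3 library. Prr32 had 2 to 3 reads per CTR library and 88 to 143 per CX3 library.

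**Figure D3:**
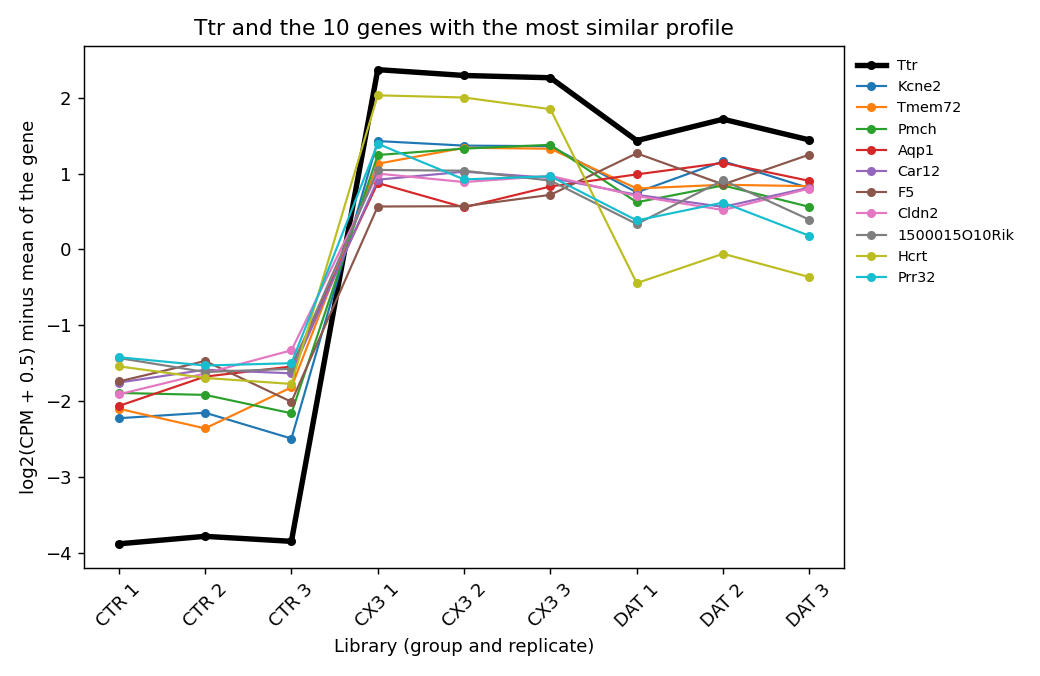
Profiles of Ttr and its 10 nearest genes over the 9 libraries, as log2(CPM + 0.5) minus the gene's own mean over the libraries. All 11 lines are lowest in the CTR libraries; in the DAT libraries Hcrt, at a mean of 1.57 CPM, falls well below the level it has in CX3, 9.29 CPM.

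A further list of 30 genes of choroid plexus epithelium was drawn up apart from the 10 but with earlier results of these data known, and each gene was tested between groups in the fit over all genes. In CX3, 13 of the 29 genes tested were called higher than in CTR and none lower by the rule above (edgeR), where 1.33% of all genes were called higher and 2.26% lower. In DAT, 19 were called higher and none lower, where 3.88% and 12% of all genes were called. The median log2 difference from CTR was 0.82 in CX3 and 1.39 in DAT. By DESeq2 the counts were the same, 13 and 19. Without the limit of 2-fold, 24 genes of the list passed for CX3 and 26 for DAT against CTR and 20 between CX3 and DAT, where 30.5%, 59.9% and 58.9% of all genes passed. Mia did not pass the filter. Kcne2 and Krt8 passed only through the Synuclein groups, where they are high, so their calls are no independent evidence. Of the other 27 genes, 11 were called higher in CX3 and 17 in DAT, with median log2 differences over the 27 of 0.73 and 1.29. Because the list was drawn up with earlier results known, the calls of these 27 genes are a description and no independent evidence either.

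The 11 genes called higher in both were Kcnj13, Sostdc1, Calml4, Tmem72, Slc4a5, Cldn2, Steap1, Wdr86, Trpv4, Krt18 and Msx1. Tmem72 rose from 0.476 to 9.43 and 6.83 CPM, by 4.33 (edgeR adjusted p = 2.55e-10) and 3.86 (adjusted p = 4.75e-10) on the log2 scale. Kcne2 was at 0.233 ± 0.0883 CPM in CTR (4 to 11 reads per library), 8.84 ± 0.242 in CX3 and 6.25 ± 1.08 in DAT (SD, n = 3), log2 differences of 5.2 (SE 0.31) and 4.68 (SE 0.31). Cldn2, a claudin of leaky tight junctions, rose from 0.767 to 6.97 and 5.68 CPM, by 3.18 and 2.89. Sostdc1, a secreted antagonist of bone morphogenetic protein and Wnt signals, rose from 1.06 to 6.01 and 6.18 CPM. The ion transporters and channels Slc4a5, a sodium bicarbonate cotransporter, Kcnj13, a potassium channel, and Trpv4, a cation channel, rose by 2.21, 1.71 and 1.21 in CX3 and 2.16, 1.06 and 1.15 in DAT on the log2 scale. The keratins of simple epithelia were lower in level, with Krt18 at 0.742, 2.08 and 2.40 CPM and Krt8 at 0.163, 0.807 and 1.34 CPM in CTR, CX3 and DAT. Calml4, a calmodulin-like gene, Steap1, a metalloreductase family gene, Wdr86 and the homeobox gene Msx1 rose by 3.09, 2.31, 1.94 and 1.25 in CX3 and by 2.44, 1.39, 1.29 and 1.84 in DAT. Among these 11 with Kcne2 and Krt8, the increase in DAT over that in CX3 was under 1 for 9 genes and over 1 for 4, with a median of 0.792.

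**Figure D4:**
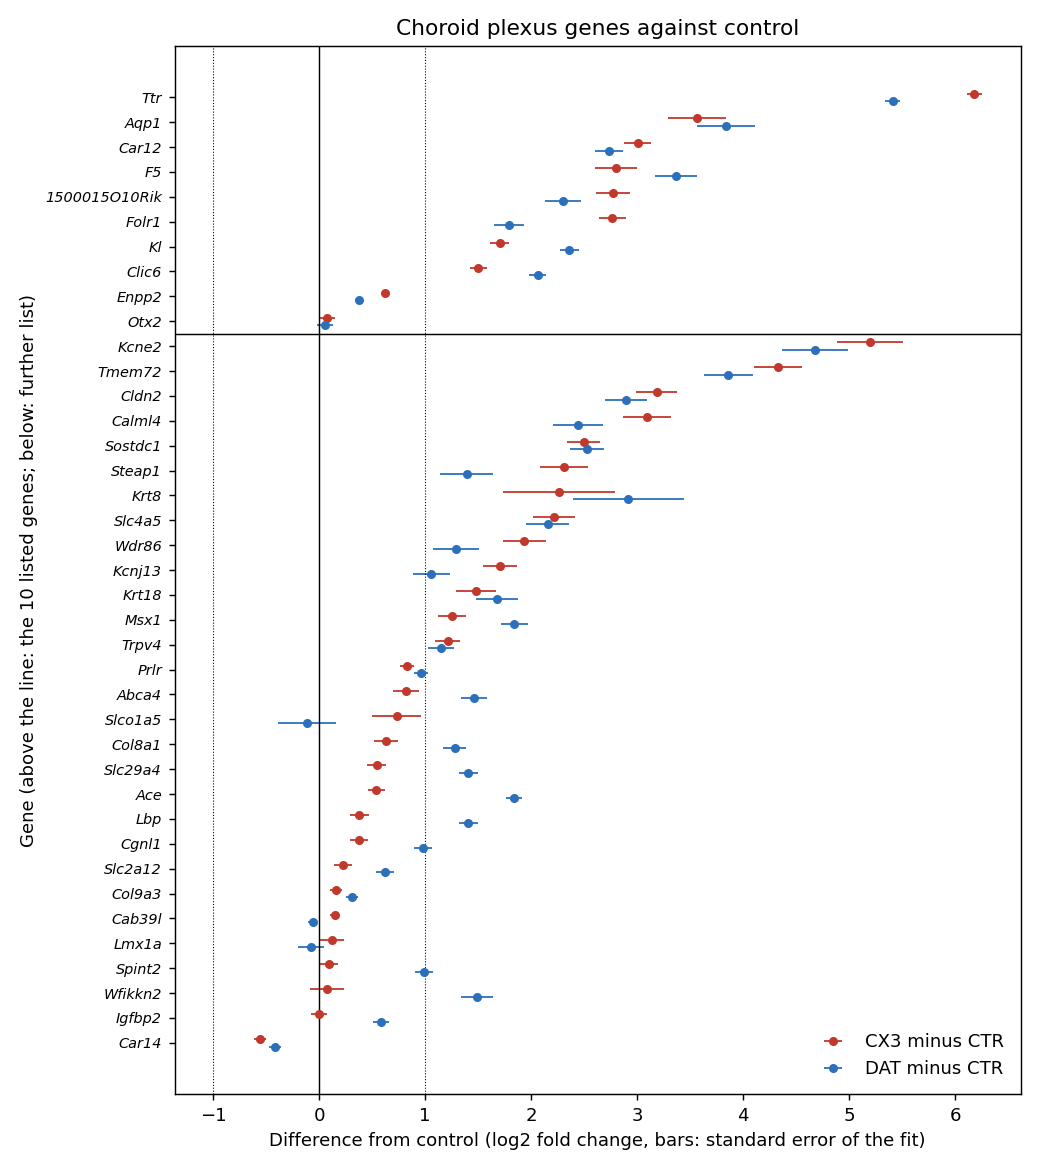
Log2 difference from CTR of the 10 listed genes (above the line) and the 29 further choroid plexus genes tested (below it) in CX3 (red) and DAT (blue); points are fitted values, bars the standard error, dotted lines a 2-fold difference. Values of the listed genes run from 6.18 for Ttr in CX3 to 0.06 for Otx2 in DAT, and those of the further list from 5.2 for Kcne2 to -0.56 for Car14, both in CX3.

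The more abundant genes of the further list behaved differently from Ttr. Igfbp2, an insulin-like growth factor binding protein, was at 92.4 ± 1.30, 92.4 ± 6 and 139 ± 18.7 CPM in CTR, CX3 and DAT, with adjusted p = 0.995 for CX3 and log2 0.58 (edgeR adjusted p = 1.56e-05) for DAT, short of 2-fold. Car14, a membrane carbonic anhydrase like Car12, was lower than CTR in both, at 45.5, 30.9 and 33.9 CPM (log2 -0.56 and -0.42). Cab39l, at 55.4, 61.4 and 53.0 CPM, and Col9a3, a collagen gene at 26.1, 29.1 and 32.3 CPM, differed by at most 0.31 on the log2 scale. Prlr, the prolactin receptor, was at 15.4, 27.4 and 30.0 CPM, 0.83 and 0.96 above CTR on the log2 scale.

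DAT exceeded CX3 in several of these. Ace, angiotensin-converting enzyme, was at 14.6, 21.2 and 52.1 CPM in CTR, CX3 and DAT, Lbp, which binds bacterial lipopolysaccharide, at 4.90, 6.39 and 13.1 CPM, and Wfikkn2, a secreted protease inhibitor family gene named here after its values were seen, at 2.65, 2.76 and 7.39 CPM. They were the 3 genes of the list called between CX3 and DAT, all lower in CX3, with log2 differences of -1.30, -1.03 and -1.41, where 4.37% of all genes were called lower and 11% higher. That split depended on the settings: 2 genes were called higher and 2 lower in CX3 with library size alone as the scaling, and 2 higher and 3 lower with second-strand counts. Slc29a4, a monoamine transporter, Col8a1, a collagen gene, Spint2, a protease inhibitor, Cgnl1, a junction protein gene, and the glucose transporter family gene Slc2a12 were at 33.7, 13.1, 41.2, 54.9 and 13.5 CPM in DAT against 18.7, 8.36, 22.0, 36.2 and 10.3 CPM in CX3. Several of these genes are also used by vessels, neurons or meninges.

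Pathway genes that choroid plexus cells share with other brain cells gave few calls. Of 10 transporters and enzymes of fluid secretion, none passed the rule for CX3 against CTR, with 7 at an unadjusted p under 0.05 in edgeR and none called by DESeq2. The most abundant were Atp1b1, a sodium pump subunit, at 1054, 1098 and 1749 CPM in CTR, CX3 and DAT, and Car2, a cytosolic carbonic anhydrase, at 601, 616 and 483 CPM. Of 13 genes that handle retinol and thyroid hormone, the cargo of transthyretin, 12 were tested. In CX3, Crabp1, a retinoic acid binding protein gene, and Crym, a thyroid hormone binding protein gene, fell by 1.66 and 1.55 on the log2 scale. In DAT, Stra6, the receptor for retinol-binding protein, rose by 1.70 and Crabp1 by 1.42, and Crym fell by 1.10. Rbp4, the partner of transthyretin in plasma, was at 8.40, 7.87 and 8.41 CPM, and the thyroid hormone receptor gene Thra and the thyroxine transporter gene Slco1c1 were at 275 and 47.8 CPM in CTR, 299 and 71.7 CPM in CX3 and 423 and 53.2 CPM in DAT. Apart from Thra and Slco1c1, the genes of this list were named after their values were seen.

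Markers of other cells that border the ventricles or make transthyretin were set beside the listed genes. For ependymal cells, which line the ventricles, 2 of 13 genes were called higher in CX3 (Ccdc153 and Pifo) and 3 in DAT (those and Tmem212), beside 1.33% and 3.88% of all genes. All 3 were at or under 1.53 CPM in the mean and passed the filter only through the Synuclein groups, so these calls are no independent evidence. Of the other 10 ependymal genes none was called in CX3 or DAT against CTR, with 4 and 6 at an unadjusted p under 0.05 in edgeR and none called by DESeq2. The more abundant ependymal genes were Foxj1, the regulator of motile cilia, at 19.1, 18.4 and 25 CPM in CTR, CX3 and DAT, and Rarres2, at 5.32, 4.54 and 3.80 CPM. The summed level of the ependymal list was 36.3 to 39.3 CPM in CTR, 39.3 to 40.1 in CX3 and 44.0 to 53.4 in DAT. Of 12 meningeal fibroblast genes, 1 was called lower in CX3 (Col1a2, a collagen gene), beside 2.26% of all genes. In DAT, 5 were called higher (Aldh1a2, Igf2, Col1a1, Col1a2 and Slc47a1), beside 3.88% of all genes. The log2 difference from CTR was positive for 4 of the 12 in CX3 and for 10 in DAT. The meningeal sum was 295 to 301 CPM in CTR, 248 to 258 in CX3 and 482 to 487 in DAT. The part of meningeal tissue in the levels of the listed genes was not tested. The most abundant meningeal genes were Dcn, a matrix proteoglycan gene, at 63.9, 67.4 and 61.4 CPM, and Col1a2, at 46.6, 22.6 and 106 CPM. Between CX3 and DAT, 2 genes of retinol and thyroid hormone handling (Stra6 and Crabp1) were called lower in CX3. So were 7 meningeal genes, beside 4.37% of all genes. No ependymal gene was called there, with 4 at an unadjusted p under 0.05 in edgeR and none called by DESeq2.

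The defining markers of the other tissues that make transthyretin, liver and retinal pigment epithelium, had means of at most 2.80 CPM in every group. The 5 hepatocyte genes summed to 1.54 to 2.44 CPM over all libraries, with Alb, albumin, at means of 0.485, 0.427 and 0.315 CPM and Apoa2, an apolipoprotein, at 1.07, 1.25 and 1.28 CPM. The 4 genes of retinal pigment epithelium summed to 3.13 to 4.72 CPM, with Best1 at 2.41, 2.12 and 2.80 CPM and Pmel at 1.10, 1.19 and 1.29 CPM. Only 3 of the hepatocyte genes and 2 of the retinal pigment epithelium genes passed the filter and were tested. None of those tested was called or at an unadjusted p under 0.05 against CTR in edgeR, nor called by DESeq2. For comparison, the 10 listed genes summed to 756 to 769 CPM in CTR, 2620 to 2687 in CX3 and 1830 to 1981 in DAT, nearly all of it from Ttr and Enpp2.

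**Figure D5:**
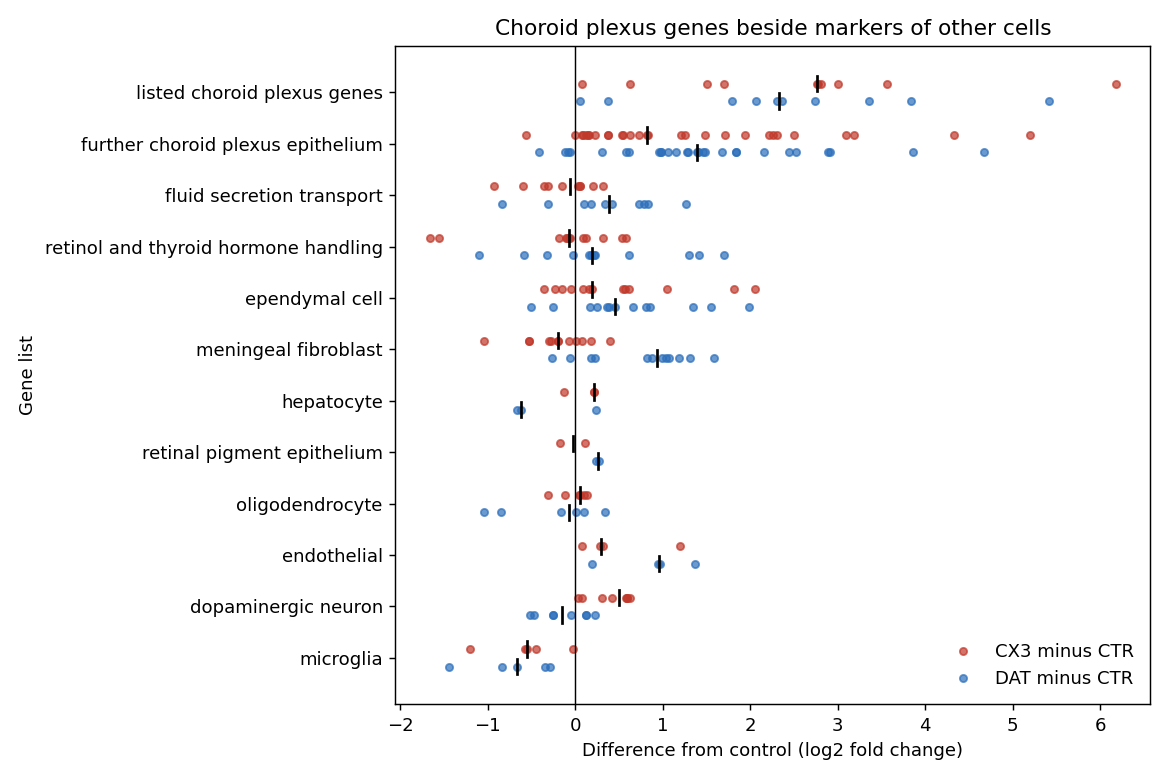
Log2 difference from CTR of each tested gene (points) in CX3 (red) and DAT (blue) by gene list, with black ticks at the list medians. The medians of the listed genes are 2.77 and 2.33 and those of the further choroid plexus list 0.82 and 1.39, against 0.20 and 0.46 for ependymal and -0.20 and 0.93 for meningeal genes.

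Markers of the cells of nigral tissue itself differed from CTR by -1.44 to 1.36 on the log2 scale. Endothelial genes summed to 124 to 126 CPM in CTR, 176 to 188 in CX3 and 236 to 238 in DAT, with Cldn5, a tight junction gene, rising by 1.2 and 1.36 on the log2 scale and Flt1, a vascular endothelial growth factor receptor gene, at 51.6, 62.7 and 101 CPM. Of 8 dopaminergic neuron genes none was called against CTR, where 3.59% of all genes were called in CX3 and 15.9% in DAT. In either group 6 were at an unadjusted p under 0.05 in edgeR, and none was called by DESeq2. All 8 had a positive log2 difference from CTR in CX3 (median 0.50) and 3 in DAT (median -0.15). Aldh1a1, an aldehyde dehydrogenase gene, was at 441, 449 and 317 CPM. Among 5 microglial genes, Cx3cr1, the locus behind the Cre line of CTR and CX3, fell by 1.2 in CX3, Aif1 fell by 1.44 in DAT, and Csf1r, a growth factor receptor gene, was at 200.3, 134 and 158 CPM. Among the 6 oligodendrocyte genes none was called in CX3, with 4 at an unadjusted p under 0.05 in edgeR and none called by DESeq2, and Mobp, a myelin gene, fell by 1.04 in DAT. Between CX3 and DAT, Slc6a3, the locus behind the Cre line of DAT, Mobp and Aif1 were called. All were higher in CX3, where 11% of all genes were called higher and 4.37% lower. Genes of these lists beyond the most abundant pair were named after their values were seen. Whether choroid plexus was taken along with the nigral tissue of the Synuclein groups was not tested, and RNA from such tissue and expression of these genes in nigral cells cannot be told apart here.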

How the data were processed

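RNA from hand-dissected nigral tissue was sequenced in 9 libraries (stranded TruSeq kit per the study's methods). The authors deposited raw counts per gene, without normalization, as tables laid out the way STAR writes them (featureCounts is the counter named in the methods); reads had been trimmed with Trimmomatic. The column of both strands together was used, since the strand columns held about equal totals. Rows for unmapped, multimapped, ambiguous and no-feature reads were left out (no-feature share 5.45% to 10.0%). Gene IDs all matched GENCODE M21 (GRCm38). Per-length levels (TPM) were computed from union exon lengths.

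Counts were fitted with edgeR 4.0.16 (R 4.3.3): TMM scaling, filterByExpr by group, quasi-likelihood test with group alone over all 9 libraries, and Benjamini-Hochberg adjustment over 20892 genes. SE are from the same fit. The script was tested on simulated data. Alternatives were DESeq2 1.42.0, other scalings, filters and strand columns, a replicate block and leaving out each library. The 10 genes and all lists were chosen with earlier results of these data known. Named were the 10 genes, of the further list the 12 most abundant and those called in both comparisons with CTR, the 2 most abundant of each other list, and the 10 nearest to Ttr. Results that need withheld items are not reported here. The searches for TATAAA and CCAAT, and the counts without genes that passed the filter only through the Synuclein groups, were added after seeing the data. Other steps used Python 3.11.15.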

Additional observations from a re-analysis of the deposited data

How the results depend on the processing

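The log2 differences of Ttr from CTR kept their direction and size under every alternative run, and the counts of the further choroid plexus list against CTR stayed within 1.5 times of 13 in CX3 and 19 in DAT under the alternatives run, except in CX3 under the rule on adjusted p alone. With library size alone in place of TMM, which moved the median of all genes by 0.20 between CX3 and DAT and by -0.15 between DAT and CTR, Ttr in CX3 over DAT was 0.97 instead of 0.77 on the log2 scale, the retinol and thyroid list had 1 gene called between CX3 and DAT, the meningeal list 0 in CX3 and 3 in DAT against CTR, and the other cell type markers 6 between CX3 and DAT; the share of higher among all calls went from 24.4% to 14.1% for DAT against CTR and from 71.6% to 83.7% for CX3 against DAT. With first-strand counts the retinol and thyroid list had 1 call between CX3 and DAT, the ependymal list 1 in DAT against CTR and 1 between CX3 and DAT, and the meningeal list 3 in DAT against CTR. With second-strand counts, 5 further choroid plexus genes were called between CX3 and DAT, 1 ependymal gene in DAT and 0 meningeal genes in CX3 against CTR. The cause was not tested.

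By adjusted p alone (background 30.5%, 59.9% and 58.9% of all genes for CX3 against CTR, DAT against CTR and CX3 against DAT), the calls were 24, 26 and 20 of the further choroid plexus list, 6, 9 and 9 for fluid secretion, 6, 8 and 9 for retinol and thyroid hormone, 2, 9 and 4 for ependymal, 8, 9 and 8 for meningeal genes, and 17, 20 and 19 for the other cell type markers, where the rule without a fold limit admits smaller differences. Without the genes that passed the filter only through the Synuclein groups, a choice made after seeing the data, the ependymal list had 0 calls in CX3 and 0 in DAT against CTR in edgeR instead of 2 and 3 (4 and 6 at an unadjusted p under 0.05, none by DESeq2), and the further choroid plexus list 11 and 17. With all genes of at least 1 count, 1409 genes were called for CX3 against CTR instead of 750 and the higher share fell to 26.3% from 37.1%.

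Leaving out 1 library in turn, the further choroid plexus list had 13 calls throughout in CX3, 18 to 20 in DAT and 2 to 4 between them, and the other cell type markers 3 to 5 between CX3 and DAT, 5 without CX3 replicate 3. Otx2 changed sign between DAT and CTR with library size alone (-0.090), first-strand counts (-0.16) and without CTR replicate 2 (-0.022, range -0.022 to 0.093), and between CX3 and DAT without CX3 replicate 2 (-0.013, range -0.013 to 0.075); its increase in DAT over that in CX3 became -9.09 with first-strand counts. The nearest genes to Ttr were the same 10 with a mean of at least 1 CPM, and 9 of them with a pseudocount of 0.1.

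The letters of the libraries do not pair them: the 9 same-letter correlations of deviations from the group means ran from -0.33 to 0.11, with 1 over 0.1. With the letters as a replicate block, 709, 3262 and 3162 genes were called for CX3 against CTR, DAT against CTR and CX3 against DAT, instead of 750, 3321 and 3212, and no list count moved by over 1.5 times.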
